A study of Homo sapiens with 12 samples.

Results

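The 9 genes described here encode enzymes that act on AXIN proteins. They are the tankyrases TNKS and TNKS2, the ubiquitin ligases RNF146, SIAH1, SIAH2, SMURF1 and SMURF2, and the deubiquitinases USP7 and USP34. All were chosen by symbol, for the known roles of their proteins, from the 15798 genes of a ribosome profiling table. Earlier results of these data were known at that point, and all 9 had enough counts to be tested. HCT116 cells, a human colorectal cancer line, received the MEK1/2 inhibitor trametinib at 100 nM, or its solvent DMSO, for 24 h. Each treatment gave 3 input libraries, in which randomly fragmented cytoplasmic RNA reports mRNA abundance, and 3 libraries of ribosome protected fragments (footprints), in which RNase I had digested all mRNA that no ribosome shielded. All groups are the same line in the same medium, all cells received cycloheximide before lysis, and the 3 replicates of a group are called biological replicates by the submitters. A single line at 1 dose and 1 time is the whole model.

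AXIN1 and AXIN2 are the scaffolds of the complex that marks beta-catenin for destruction, and in many cells they are its scarcest part, so their turnover sets the tone of WNT signalling. Tankyrases attach poly(ADP-ribose) to AXIN, RNF146 reads that chain and adds ubiquitin, and the proteasome then removes the protein. SIAH and SMURF ligases also ubiquitinate AXIN, and USP7 and USP34 take ubiquitin off it.

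Libraries held between 2276693 and 2845568 counts in input and between 10127477 and 19181588 counts in footprints. Levels are given as CPM (counts scaled to a common library size), scaled by the trimmed mean of M values (TMM) within each assay. Changes are log2 ratios of trametinib over DMSO with a standard error (SE), and the adjusted p-values are those of edgeR's quasi-likelihood test with Benjamini-Hochberg adjustment over the 12000 genes tested, called where under 0.05. Of 10 ERK output genes, among them those for dual-specificity phosphatases and Sprouty proteins, 9 fell and 1 rose in both assays, with a median input change of -3.50. Of 10 epithelial markers 6 were detected, EPCAM and CDH1 among them, while VIL1, CDX1, LGALS4 and CEACAM5 did not reach 10 counts in 3 input libraries, and 0 of 4 leukocyte markers did. The summed epithelial list was at 4922 to 7533 CPM in DMSO input and 8169 to 10335 CPM in trametinib input. Of 4 fibroblast markers COL1A1 and COL3A1 were detected while COL1A2 and DCN stood at 0 or 1 count in each library, and the summed input level was 7.63 to 13.9 CPM in DMSO and 20.5 to 26.5 CPM in trametinib. Of 3 endothelial markers VWF alone was detected, with CDH5 at 0 or 1 count, at a summed 0.795 to 3.63 CPM in DMSO input and 8.84 to 10.0 CPM in trametinib input. The part of these markers in the results was not tested, and in bulk libraries fewer cells of a kind and less RNA per cell cannot be told apart.

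One library stood apart for these genes. In DMSO input replicate 3, 7 of the 9 genes lay below the mean of replicates 1 and 2, from 0.430 of it for SIAH1 to 0.847 for USP7, while the median of all tested genes was 0.991. SIAH2 was at 1.01 and SMURF1 at 1.18. The 4 input calls given next all held without that library, with SIAH1 at -1.55 on the log2 scale.

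Upon MEK1/2 inhibition, 4 of the 9 mRNAs fell in input, those of USP7, SIAH1, SIAH2 and SMURF2. In input 0 members rose, by edgeR, DESeq2 or limma and also at an unadjusted p under 0.05. Over all tested genes 15.5% were called lower and 13.9% higher in input. In footprints, relative to the other genes, USP7, SIAH2 and SMURF2 fell again and TNKS2 and RNF146 rose. Thus 3 of 9 were lower, against 24.4% of all genes, and 2 of 9 higher, against 24%. That balance depended on the scaling: with library totals 2 of 9 members were lower, against 17.3% of all genes, and 3 of 9 higher, against 33.6%. The share that fell in input, 4 of 9, was above its background. It was 3 of 9 without trametinib input replicate 1 or 2, and the members were chosen with earlier results of these data known. The excess is therefore a description and not a test. In footprints the shares called were near their background under the TMM scaling. The 6 libraries of an assay separated by treatment without overlap for 3 members in input, where 44.5% of all genes did, and for 6 members in footprints, where 58.8% did. Median changes of the members were -0.06 in input and -0.25 in footprints, with 0.00 over all genes in both.

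**Figure D1:**
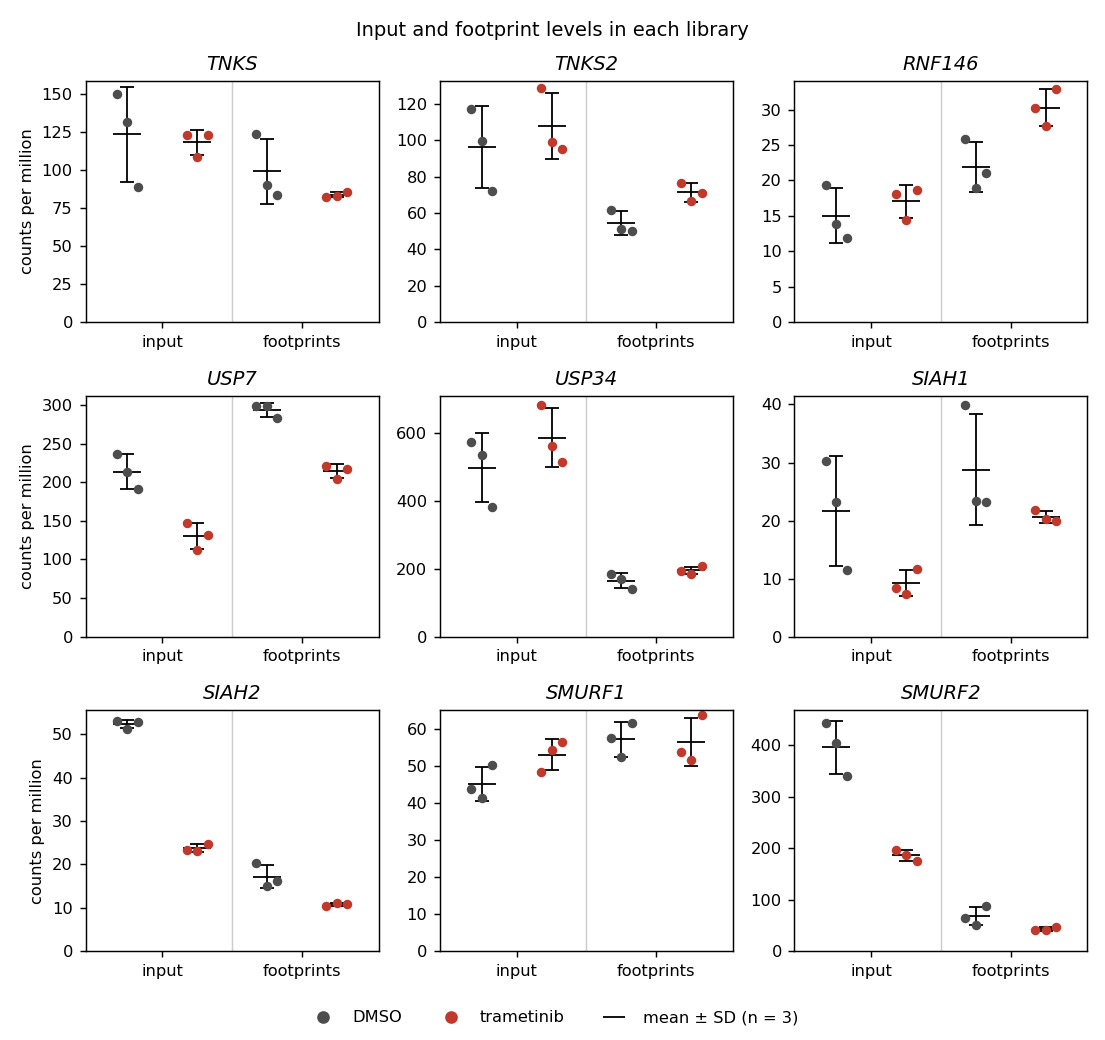
TMM-normalised CPM of the 9 genes (linear axes from 0) in each of the 12 libraries, grey for DMSO and red for trametinib, with replicates 1 to 3 from left to right in each group and the mean ± SD (n = 3) in black. SIAH2 input, at 51.2 to 53.0 CPM in DMSO and 23.1 to 24.8 CPM in trametinib, separates with little spread, whereas SIAH1 input in DMSO, at 11.5 to 30.3 CPM, reaches down to the trametinib libraries.

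**Figure D2:**
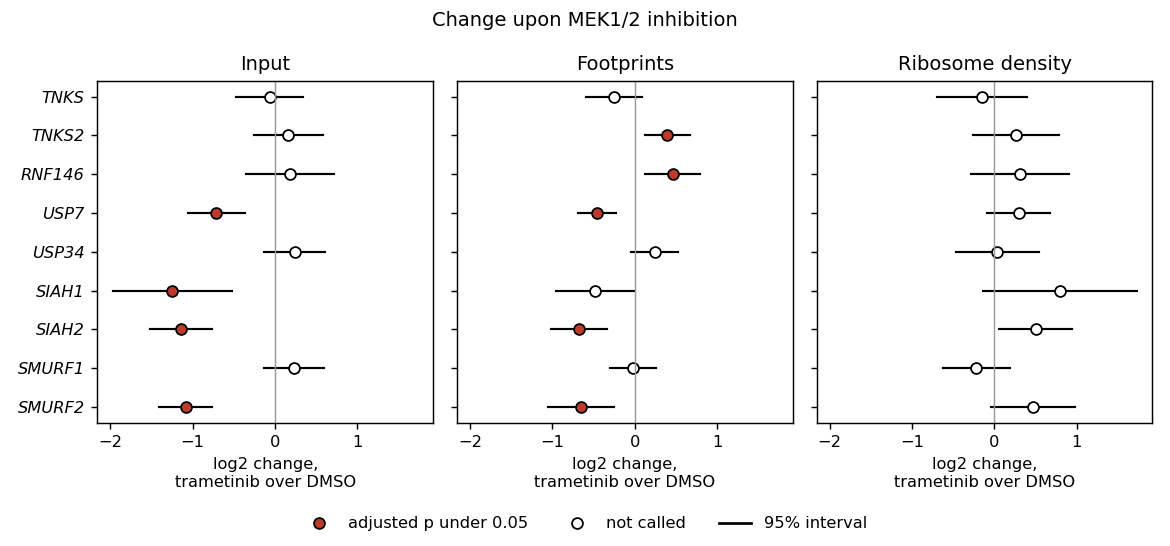
Log2 change of trametinib over DMSO (x axis) of each gene in input, footprints and ribosome density, with the 95% interval as a line and calls at an adjusted p under 0.05 filled red. Input holds 4 calls, all to the left of 0, footprints hold 3 to the left and 2 to the right, and ribosome density holds 0.

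Sequences just upstream of the start of transcription are shown for 4 members, because 3 of them fell together in input (USP7, SIAH1 and SMURF2) and 1 was not called in input and rose in footprints (TNKS2). They are 250 bases of RefSeq promoter on GRCh38.p14, written 5′ to 3′ along the gene's strand: USP7 at chr16:8963907-8964156 (minus strand), SIAH1 at chr16:48385414-48385663 (minus), SMURF2 at chr17:64662308-64662557 (minus) and TNKS2 at chr10:91798176-91798425 (plus). Each ends at the start of the gene's canonical transcript, and for USP7 and SIAH1 longer annotated transcripts begin further upstream. Capitals mark matches, on either strand, to the GC box (GGGCGG) or to the EGR1 motif (GCGNGGGCG), and in SMURF2 neighbouring GC boxes share a base.
USP7: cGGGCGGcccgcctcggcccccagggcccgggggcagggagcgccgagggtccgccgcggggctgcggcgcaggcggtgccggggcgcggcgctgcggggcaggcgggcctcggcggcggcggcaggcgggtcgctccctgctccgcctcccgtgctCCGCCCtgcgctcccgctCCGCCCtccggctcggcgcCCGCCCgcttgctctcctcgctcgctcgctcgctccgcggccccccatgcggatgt
SIAH1: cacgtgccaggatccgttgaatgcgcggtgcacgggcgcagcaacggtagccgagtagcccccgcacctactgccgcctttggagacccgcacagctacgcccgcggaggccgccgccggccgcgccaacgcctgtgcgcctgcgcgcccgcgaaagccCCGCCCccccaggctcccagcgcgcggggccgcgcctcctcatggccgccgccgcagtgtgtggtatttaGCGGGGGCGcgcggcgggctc
SMURF2: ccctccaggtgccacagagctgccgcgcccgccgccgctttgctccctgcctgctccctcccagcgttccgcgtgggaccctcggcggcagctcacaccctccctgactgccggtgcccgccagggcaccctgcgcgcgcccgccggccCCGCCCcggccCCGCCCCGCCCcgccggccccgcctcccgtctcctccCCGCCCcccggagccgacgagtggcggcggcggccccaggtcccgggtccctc
TNKS2: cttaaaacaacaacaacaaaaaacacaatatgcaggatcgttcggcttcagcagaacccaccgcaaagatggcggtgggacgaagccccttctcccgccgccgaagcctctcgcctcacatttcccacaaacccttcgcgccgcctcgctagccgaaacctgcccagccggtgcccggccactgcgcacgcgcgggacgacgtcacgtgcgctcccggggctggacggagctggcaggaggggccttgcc

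USP7 and SMURF2 each held 4 GC boxes, SIAH1 held 1 with 1 EGR1 match, and TNKS2 held 0 of either. Among the other promoters searched, USP34 held 5 GC boxes and SIAH2 held 2, SMURF1 held 2 with 2 EGR1 matches, and RNF146 held 0. Of 34943 RefSeq promoters of this length 42.55% held a GC box and 8.385% an EGR1 match. The ETS motif CCGGAA, the AP-1 motif TGANTCA and the CRE TGACGTCA, found in 14.48%, 6.591% and 1.634% of promoters, had no match in the windows of the 8 members searched, which says only that these letters are not there. GC boxes were present both in members that fell and in USP34 and SMURF1, which were not called.

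The tankyrases come first in the pathway. TNKS (chr8:9555912-9782346, plus strand, 27 exons on GRCh38) and TNKS2 (chr10:91798426-91865475, plus, 27 exons) encode close homologues that bind AXIN through ankyrin repeats and modify it through a PARP domain. TNKS input was 150.2, 132 and 89.0 CPM in DMSO replicates 1 to 3 and 123, 109 and 123 CPM in trametinib. The groups overlapped, and the change was -0.06 (SE 0.19, adjusted p = 0.835). TNKS footprints were at 124, 90.55 and 83.9 CPM in DMSO and 82.7, 83.3 and 85.6 CPM in trametinib. DMSO replicate 1 was the high library, DMSO replicate 3 lay within the trametinib range, and the change was -0.25 (SE 0.15, adjusted p = 0.203). It shrank to -0.055 without DMSO footprint replicate 1 and to -0.061 with library totals.

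TNKS2 input was 117, 99.5 and 72.3 CPM in DMSO and 129, 99.3 and 95.2 CPM in trametinib. These overlapped too, with a change of 0.16 (SE 0.20, adjusted p = 0.576). TNKS2 footprints were 61.8, 51.1 and 50.2 CPM in DMSO and 76.7, 66.4 and 71.1 CPM in trametinib, so that each trametinib library lay above each DMSO library. Relative to the other genes, footprints of TNKS2 rose 1.31-fold (log2 0.39, SE 0.12, adjusted p = 0.0246). That call was not stable. It was lost with all 12 libraries in 1 fit (0.38, adjusted p = 0.0768). It was also lost in 5 of 6 fits that left out 1 library, at adjusted p between 0.0520 and 0.128. Among those 6 fits it held only without DMSO footprint replicate 1 (0.50, adjusted p = 0.00110), and the value ran from 0.33 to 0.50.

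The pair can also be read as a share within each library, which needs no scaling between libraries. TNKS took 66.7%, 63.9% and 62.6% of the pair's footprint counts in the DMSO replicates and 51.9%, 55.7% and 54.6% in trametinib. Each trametinib library was below each DMSO library, and the mean share went from 64.4% ± 2.11 to 54.0% ± 1.95 (SD, n = 3), a difference of -10.3 percentage points (exact two-sided permutation test, p = 0.1, the smallest that 3 against 3 allow, 0.2 adjusted over 6 comparisons). In input the share was 56.1% ± 0.879 in DMSO and 52.5% ± 3.71 in trametinib, a difference of -3.56 points with overlapping groups (exact permutation p = 0.3, adjusted 0.36). Counting error of a single library, as a 95% Wilson interval, was 65.0% to 68.3% for DMSO footprint replicate 1 and 50.2% to 53.6% for trametinib footprint replicate 1. Such intervals cover counting error only.

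RNF146 (chr6:127266726-127288567, plus strand) is the ligase that acts on what tankyrases have modified. It was the least abundant member in DMSO input per length, at 14.0 CPM per kilobase of coding sequence, and its input values rest on 30 to 53 counts a library. RNF146 input was 19.4, 13.8 and 11.9 CPM in DMSO and 18.1, 14.4 and 18.7 CPM in trametinib, overlapping, with a change of 0.18 (SE 0.25, adjusted p = 0.630). RNF146 footprints were at 25.8, 19.0 and 21.0 CPM in DMSO and 30.2, 27.7 and 32.9 CPM in trametinib. All 3 trametinib libraries were above all 3 DMSO libraries. Relative to the other genes, footprints rose 1.38-fold (log2 0.46, SE 0.15, adjusted p = 0.0291). As for TNKS2, the call was lost in 5 of 6 fits that left out 1 library, here at adjusted p between 0.0559 and 0.115, and held only without DMSO footprint replicate 1 (0.59, adjusted p = 0.00128).

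SIAH1 (chr16:48356364-48448402, minus strand) and SIAH2 (chr3:150741125-150763477, minus) encode RING ligases, known for targeting AXIN and many other proteins, prolyl hydroxylases among them. SIAH2 input was 53.0, 51.2 and 52.9 CPM in DMSO and 23.3, 23.1 and 24.8 CPM in trametinib. The groups were far apart with little spread inside each, and SIAH2 fell to 45.3% of DMSO (log2 -1.14, SE 0.17, adjusted p = 0.000252). SIAH2 footprints were 20.3, 15.1 and 16.2 CPM in DMSO and 10.4, 11.0 and 11.0 CPM in trametinib, again without overlap, and fell to 62.5% (log2 -0.68, SE 0.15, adjusted p = 0.00580). Both SIAH2 calls held in every alternative fit and every fit without 1 library.

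SIAH1 input was 30.3, 23.3 and 11.5 CPM in DMSO and 8.43, 7.40 and 11.7 CPM in trametinib, from 17 to 83 counts. DMSO replicate 3 lay just under trametinib replicate 3, so the groups overlapped, and the model called SIAH1 lower at 42.1% of DMSO (log2 -1.25, SE 0.34, adjusted p = 0.0130). Without trametinib input replicate 1 or 2 that call was lost (adjusted p = 0.0558 and 0.0669). SIAH1 footprints were at 39.9, 23.3 and 23.1 CPM in DMSO and 21.8, 20.2 and 19.9 CPM in trametinib. These groups did not overlap, but DMSO replicate 1 was well above the rest and the change of -0.48 (SE 0.21, adjusted p = 0.0881) was not called. Without DMSO footprint replicate 3 it passed (-0.62, adjusted p = 0.0417), without DMSO footprint replicate 1 it was -0.17, and with library totals -0.30.

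SIAH1 made up 28.5% ± 9.54 of the SIAH pair's input counts in DMSO and 27.7% ± 4.04 in trametinib (SD, n = 3), a difference of -0.84 points (exact permutation p = 1, adjusted 1). Without single libraries that difference ranged from -6.14 to 3.11 points. In footprints the share was 61.9% ± 3.89 and 65.6% ± 1.78, a difference of 3.71 points with overlapping groups (exact permutation p = 0.3, adjusted 0.36). The minor SIAH mRNA in input was thus the major one in footprints under both treatments.

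SMURF1 (chr7:99027440-99144108, minus strand) and SMURF2 (chr17:64542282-64662307, minus) encode HECT ligases of the NEDD4 family, best known for acting on receptors and SMADs of the TGF-beta pathway. SMURF2 input was 442, 405 and 340 CPM in DMSO and 197, 186 and 175 CPM in trametinib. No library overlapped, and SMURF2 fell to 47.1% of DMSO (log2 -1.09, SE 0.15, adjusted p = 0.000118). SMURF2 footprints were at 64.9, 52.0 and 87.1 CPM in DMSO and 40.4, 41.9 and 47.7 CPM in trametinib. The DMSO libraries were spread but all above trametinib, and footprints fell to 63.5% (log2 -0.65, SE 0.18, adjusted p = 0.0147), a call lost without trametinib footprint replicate 1 or 2 (adjusted p = 0.0547 and 0.0538). Without DMSO footprint replicate 3, the highest library, the value was -0.44 (adjusted p = 0.0343).

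SMURF1 did not pass the test in either assay. SMURF1 input was 43.9, 41.4 and 50.5 CPM in DMSO and 48.6, 54.4 and 56.5 CPM in trametinib, a change of 0.23 with a 95% interval from -0.13 to 0.60 (adjusted p = 0.333). Its footprints were 57.7, 52.5 and 61.8 CPM in DMSO and 53.9, 51.7 and 64.0 CPM in trametinib, a change of -0.02 with an interval from -0.30 to 0.25 (adjusted p = 0.899). The sign of that footprint value turned with the scaling: with library totals, which moved the median footprint change of all genes to 0.19, it was 0.16.

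Within the SMURF pair, SMURF1 took 9.03%, 9.28% and 12.9% of input counts in DMSO and 19.8%, 22.6% and 24.4% in trametinib. Mean shares were 10.4% ± 2.18 and 22.3% ± 2.33 (SD, n = 3), a difference of 11.8 points without overlap (exact permutation p = 0.1, adjusted 0.2). In footprints the share was 46.3% ± 4.43 in DMSO and 56.6% ± 1.15 in trametinib, a difference of 10.3 points, also without overlap (exact permutation p = 0.1, adjusted 0.2). SMURF2 was the larger part of the pair in all 6 input libraries, and SMURF1 in the 3 trametinib footprint libraries and in DMSO footprint replicate 2.

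**Figure D3:**
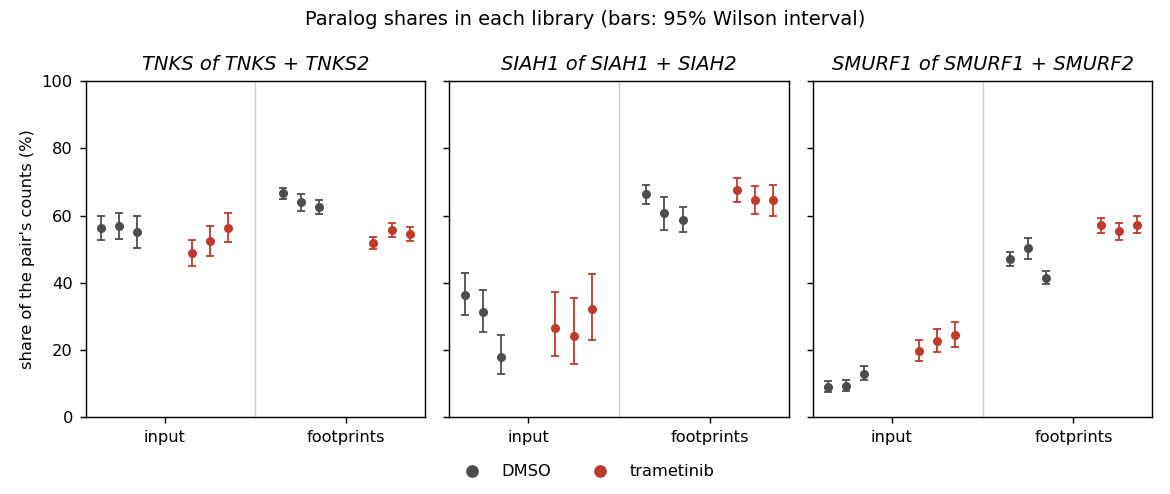
Share of each paralog pair's counts (y axis, percent) taken by the first-named gene in each library, grey for DMSO and red for trametinib, with the 95% Wilson interval of the count as a bar. The TNKS share of footprints lay at 62.6% to 66.7% in DMSO and 51.9% to 55.7% in trametinib, the SMURF1 share of input at 9.03% to 12.9% and 19.8% to 24.4%, and the SIAH1 shares of the treatments overlapped in both assays.

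The deubiquitinases differed from each other. USP7 (chr16:8892097-8975328, minus strand), which also removes ubiquitin from MDM2 and p53, fell in both assays. USP7 input was 237, 214 and 191 CPM in DMSO and 147, 112 and 132 CPM in trametinib, without overlap, at 61.0% of DMSO (log2 -0.71, SE 0.16, adjusted p = 0.00418). USP7 footprints were at 298, 299 and 283 CPM in DMSO and 221, 204 and 217 CPM in trametinib. The groups were again separate, and footprints fell to 73.0% (log2 -0.45, SE 0.10, adjusted p = 0.00587). With library totals the footprint value was -0.27 and the call was lost (adjusted p = 0.0526), while the median of all genes stood at 0.19. Of the 28-base windows of the USP7 reading frame, 9.24% also occur in GENCODE v44 transcripts of other symbols, the highest share among the members, and whether reads there were counted was not tested.

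USP34 (chr2:61187463-61471087, minus strand, 80 exons) encodes a very large protease that stabilises AXIN in WNT signalling. USP34 input was 574, 537 and 383 CPM in DMSO and 684, 562 and 515 CPM in trametinib, overlapping, a change of 0.24 with an interval from -0.14 to 0.61 (adjusted p = 0.337). Its footprints were 186, 170.0 and 141 CPM in DMSO and 194, 186 and 207 CPM in trametinib, a change of 0.24 with an interval from -0.05 to 0.53 (adjusted p = 0.148). The lowest trametinib footprint library lay at the level of the highest DMSO library. It passed without DMSO footprint replicate 1 (0.33, adjusted p = 0.0164) and with library totals (0.42, adjusted p = 0.0206), and was 0.14 without DMSO footprint replicate 3.

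Ribosome density, the change in footprints beyond the change in input, was tested as the interaction of assay and treatment over all 12 libraries. No member passed: 0 of 9 were called by edgeR, DESeq2, limma or any other fit, where edgeR called 0.05% of all genes higher and 0.75% lower. At an unadjusted p under 0.05 edgeR passed 1 member, SIAH2 (log2 0.50, 95% interval 0.06 to 0.94, unadjusted p = 0.0297, adjusted p = 0.544), and 7.75% of all genes. The 4 genes that fell in input had density values above 0, at 0.80 for SIAH1 (interval -0.14 to 1.73), 0.50 for SIAH2, 0.47 for SMURF2 (-0.04 to 0.97) and 0.29 for USP7 (-0.09 to 0.68). Such values share the input libraries with the input change, and among all 1857 genes called lower in input the median density change was 0.07, with 58.2% above 0.

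For the other members the density values were 0.31 for RNF146 (interval -0.28 to 0.91), 0.26 for TNKS2 (-0.26 to 0.78), 0.04 for USP34 (-0.46 to 0.54), -0.15 for TNKS (-0.70 to 0.40) and -0.22 for SMURF1 (-0.62 to 0.18). Each interval holds 0, and with 3 libraries a group a change inside it cannot be told from no change. The lowest SE among members was 0.18, for USP7, and the highest 0.44, for SIAH1. In the same libraries the 99 tested genes with a 5′ TOP mark in the table, mostly parts of the translation machinery, had a median density change of -1.01 with 62 called lower. None of the members carries that mark.

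**Figure D4:**
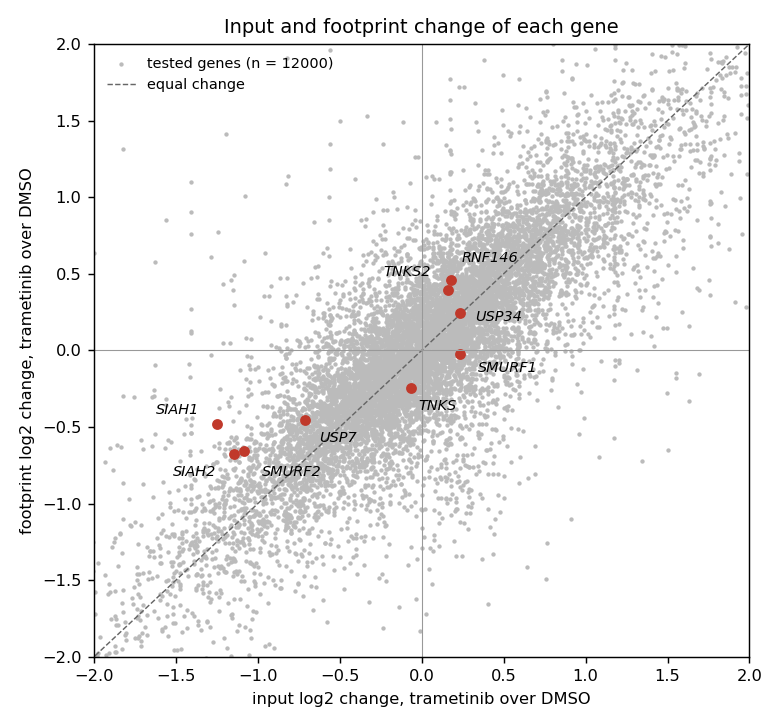
Footprint change (y axis) against input change (x axis), both log2 of trametinib over DMSO, for the 12000 tested genes in grey, with 840 outside the plotted range of ±2, and the members in red. SIAH1, SIAH2, SMURF2 and USP7 lie to the left of 0 and above the dashed line of equal change, with input at -1.25, -1.14, -1.09 and -0.71 and footprints at -0.48, -0.68, -0.65 and -0.45.

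Footprint level over input level at the same treatment and replicate number differed widely among members. Per the study's methods, input RNA was set aside from the lysate that gave the footprints. Which libraries share a lysate was taken from the numbers in the labels. SMURF2 had the lowest ratio, at 0.147, 0.128 and 0.256 in the DMSO replicates and 0.205, 0.225 and 0.272 in the trametinib replicates. In DMSO it was at percentile 1.6 of the tested genes. SIAH2, with a mean of 0.328 ± 0.0476, and USP34, with 0.336 ± 0.0283 (SD, n = 3), were also low, against a median of 0.975 over all genes. RNF146 (1.49 ± 0.237), SIAH1 (1.44 ± 0.513), USP7 (1.38 ± 0.114) and SMURF1 (1.27 ± 0.0462) lay above it. TNKS stood at 0.818 ± 0.127 and TNKS2 at 0.579, from 0.514 to 0.694.

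Per kilobase of coding sequence the order of levels depended on the assay. In DMSO input SMURF2 was highest, at 176 ± 23.0 CPM per kb, then USP7 at 64.7 ± 7.01 and SIAH2 at 53.9 ± 1.01, each clear of the next except that SIAH2 overlapped USP34 (46.8 ± 9.56). USP34, TNKS (31.0 ± 7.87), TNKS2 (27.5 ± 6.43), SIAH1 (25.7 ± 11.2) and SMURF1 (20.6 ± 2.14) followed with overlapping neighbours, and RNF146 came last, clear of SMURF1. In DMSO footprints USP7 led at 88.8 ± 2.77 CPM per kb, apart from all others, and the remaining 8 ran from SIAH1 (34.0 ± 11.4) to TNKS2 (15.5 ± 1.84) with every neighbour overlapping. Trametinib left SMURF2 first in input, at 83.0 ± 4.91, and USP7 first in footprints, at 64.8 ± 2.65, with SIAH1 last in input, overlapping RNF146, and SIAH2 last in footprints, clear of USP34.

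Across the 12 libraries, with log2 CPM centred within each assay, some members ran together. USP7, SIAH2 and SMURF2 had pairwise Pearson r of 0.932 (USP7 with SIAH2), 0.918 (SIAH2 with SMURF2) and 0.900 (USP7 with SMURF2). TNKS2 ran with USP34 (r = 0.922) and RNF146 (r = 0.844) and less with its paralog TNKS (r = 0.389). In DMSO input replicate 3, TNKS2, USP34 and RNF146 were at 0.668, 0.689 and 0.719 of the mean of replicates 1 and 2, and TNKS at 0.632. The part of that library in these r values was not tested. The genes most like each member were, for example, MCL1 for TNKS (r = 0.948), USP9X for TNKS2 (r = 0.944), CTBS for RNF146 (r = 0.940), DOCK5 for USP7 (r = 0.978), NOP56 for SIAH2 (r = 0.982) and BCCIP for SMURF2 (r = 0.986), among 4793 genes. SMURF1 had the weakest best match, PDXK (r = 0.810). These are descriptions over libraries that share treatment and replicate number, not tests.

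AXIN1 itself was at 33.3 ± 6.37 CPM in DMSO input and 27.2 ± 2.32 in trametinib (SD, n = 3), a change of -0.30 (SE 0.20, adjusted p = 0.302). AXIN1 footprints were 10.5 ± 0.477 and 7.60 ± 1.63 CPM, a change of -0.47 (SE 0.19, adjusted p = 0.0599), which passed in 4 of 14 alternatives, among them the fit with the replicate number as a block (-0.49, adjusted p = 0.0472). Over the 14 the adjusted p ran from 0.0269 to 0.220, the highest with library totals (-0.29). Of 12 tested genes for AXIN proteins and other enzymes that act on them or on tankyrase, 1 rose and 1 fell in input. For comparison, the input test called 13.9% of all 12000 genes up and 15.5% down. In footprints 3 of the 12 rose and 4 fell, where 24% of all genes were called up and 24.4% down. For ribosome density edgeR called 0 of the 12, with 2 at an unadjusted p under 0.05, while DESeq2 called 1 and limma 0. AXIN2, the negative feedback target of WNT signalling, rose in input (log2 2.28, SE 0.35, adjusted p = 0.000277) and in footprints (2.17, SE 0.52, adjusted p = 0.00754). CSNK1A1, the kinase that primes beta-catenin, fell in input (-0.87, SE 0.23, adjusted p = 0.0122), a call lost without trametinib input replicate 2 (-0.68, adjusted p = 0.0779). Its footprints rose (0.47, SE 0.14, adjusted p = 0.0215), a call lost with all 12 libraries in 1 fit (adjusted p = 0.0802). That call was also lost without DMSO footprint replicate 2 or any 1 trametinib footprint library (adjusted p = 0.0565 to 0.0767). The CSNK1A1 ribosome density value of 1.37 (SE 0.30, adjusted p = 0.0516) was the one that DESeq2 called (1.33, adjusted p = 0.00401). PPP2CA, a phosphatase catalytic subunit (-0.45, SE 0.11, adjusted p = 0.00829), and the ligase TRIM65 (-0.57, SE 0.15, adjusted p = 0.0106) fell in footprints, and both calls were lost with library totals (adjusted p = 0.0644 and 0.0556).

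Other proteins that tankyrases bind or modify were tested as 16 genes, with a median input change of 0.07. Of these edgeR called 4 higher and 0 lower in input (2 lower at an unadjusted p under 0.05, 0 by DESeq2 or limma). In footprints 6 rose and 2 fell. For this list and the next, the background over all tested genes was 13.9% higher and 15.5% lower in input. In footprints it was 24% and 24.4%. AMOT, a scaffold that holds YAP at junctions, rose in input (1.45, SE 0.25, adjusted p = 0.000702) and in footprints (1.63, SE 0.26, adjusted p = 0.000955). NUMA1, which organises the spindle poles, rose in input (0.49, SE 0.15, adjusted p = 0.0213), a call lost on leaving out any of the 3 trametinib input libraries (adjusted p = 0.0552 to 0.124). The receptor NOTCH2 rose in footprints (0.69, SE 0.11, adjusted p = 0.000796). Among the 7 other HECT ligases of the NEDD4 family, 1 rose and 1 fell in input, and 2 rose and 1 fell in footprints. The 1 that rose in input, HECW1 (0.81, SE 0.25, adjusted p = 0.0265), lost that call with DESeq2 (adjusted p = 0.0843) and without DMSO input replicate 2 or 3 or trametinib input replicate 2 or 3 (0.0546 to 0.116). NEDD4 fell in input (-1.56, SE 0.32, adjusted p = 0.00240) and in footprints (-1.80, SE 0.28, adjusted p = 0.000797), whereas HECW1 (1.08, SE 0.16, adjusted p = 0.000652) and WWP1 (0.58, SE 0.14, adjusted p = 0.00862) rose in footprints.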

How the data were processed

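Ribo-seq was measured in 12 libraries, 4 groups of 3, grouped and numbered by the sample labels. Per the study's methods the authors removed adapters, discarded rRNA and tRNA reads, aligned the rest to Gencode V38 transcripts and counted reads of 25 to 35 nt inside reading frames that belonged to 1 gene symbol. The submitters' processing notes name Bowtie 1.2.2 and DESeq2 1.46.0. The deposited table holds whole-number counts and, as a normalized signal, each count over its library's size factor, a constant multiple of the count in 12 of 12 libraries that was not used further. Its 6 columns of the authors' comparisons were not used, and 0 columns per library were left unused.

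Genes that reached 10 counts in 3 or more of the 12 libraries were tested. Their raw counts were fitted with edgeR 4.0.16 (quasi-likelihood, TMM; R 4.3.3), input and footprints separately and ribosome density as the interaction over all libraries. The study tested that interaction with DESeq2, run here as an alternative (1.42.0), as was limma-trend 3.58.1 on log2 CPM with a prior count of 2. The SE was taken from the fold change and its F statistic, with a 95% t interval. The scripts were tested on simulated data. Paralog shares used exact permutation tests (SciPy 1.17.1). Coding lengths and gene positions came from GENCODE v44 on GRCh38, the build of the authors' annotation, and covered 11896 of the 12000 tested genes. Coding length was planned from protein sequences and was taken from annotated reading frames instead. Promoters came from RefSeq, and those of SIAH2, RNF146, USP34 and SMURF1 were searched but not printed.

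All 9 members were named, and genes of the other lists only where called, at most the 3 with the lowest p in each list and comparison. AXIN1 was added as the common target. CSNK1A1, picked for input, was also given in footprints and ribosome density, outside this rule. A gene that this rule picked is not reported here. Members and lists were chosen with earlier results of these data known. Same-numbered DMSO and trametinib libraries deviated together in footprints (r = 0.109, 0.128 and 0.289 over 8433 genes). Alternatives changed the scaling, filter, tool, replicate block and libraries. PCR duplicates cannot be told from separate molecules, so depth limits are those of counting.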

Additional observations from a re-analysis of the deposited data

How the results depend on the processing

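Of 432 values of the members under other settings, 400 kept direction and side of the threshold, 16 lost a call, 3 gained one and 13 changed sign, none of them a called value. Other genes that the naming rule picked, with the added values of AXIN1 and CSNK1A1, gave 474 values. Of these 443 kept both, 17 lost a call, 13 gained one and 1 changed sign. All 42 other values of the paralog shares stayed within the larger of the DMSO and trametinib SDs. The SIAH1 input difference (-0.84 points) still changed sign, at -6.14 to 3.11 points without single libraries. The count of members higher in footprints, 2, was 1 with all 12 libraries in 1 fit and 0 to 3 without single libraries. Genes called higher in ribosome density, 6 in all, numbered 21 with library totals, 11 with no filter, 10 with the filter on input libraries, 35 with DESeq2 and 1 to 12 without single libraries. Those called lower, 90, numbered 74 with library totals, 150 with DESeq2 and 56 to 116 without single libraries. Genes higher in input, 1670, ranged from 1084 to 1758 without single libraries, the lowest without trametinib input replicate 2. CSNK1A1 density (1.37, adjusted p = 0.0516) passed in 9 alternatives, with adjusted p from 0.000401 to 0.0454. With library totals 4034 genes were higher and 2077 lower in footprints, in place of 2878 and 2934. The causes were not tested.

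The sign changed for SMURF1 footprints with library totals (0.16). Without single libraries, TNKS input ranged from -0.25 to 0.091, TNKS2 input from -0.0064 to 0.31, RNF146 input from 0.041 to 0.39, USP34 input from 0.079 to 0.34, SMURF1 footprints from -0.13 to 0.035, TNKS density from -0.31 to 0.045 and USP34 density from -0.069 to 0.20, and AXIN1 density from -0.29 to 0.026.

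The replicate block called 2014 genes up and 2163 down in input and, for footprints, 2888 up and 2931 down, and changed no member's call. The main test of ribosome density had no replicate block. A block for each treatment and replicate number gave 25 genes higher and 135 lower in ribosome density. A replicate block by number alone gave 9 and 100, with 0 members called in either. Same-numbered DMSO and trametinib input libraries correlated at r = 0.0694, 0.0601 and 0.310, with 4 of 6 libraries most like their own number. Input and footprints of the same treatment and number correlated at 0.800, 0.186 and 0.344 in DMSO and 0.144, 0.0707 and -0.112 in trametinib. Of 6 libraries, 2 in DMSO and 3 in trametinib were most like their own number. Depth limits input most, at 17 to 145 counts a library for SIAH1, SIAH2 and RNF146.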

Other observations

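The relatives of these enzymes outside the AXIN pathway included larger changes. Of 13 tested PARP family genes other than the tankyrases, 6 rose and 1 fell in input, and 7 rose and 1 fell in footprints. Their median changes were 0.48 in input and 0.50 in footprints on the log2 scale, with 0.00 over all genes. The share of all tested genes called up was 13.9% for input and 24% for footprints. The share called down was 15.5% for input and 24.4% for footprints. PARP9 rose in input (2.71, SE 0.22, edgeR adjusted p = 5.78e-07) and in footprints (2.92, SE 0.12, adjusted p = 4.26e-07). PARP14 rose in input (1.85, SE 0.17, adjusted p = 1.98e-06) and in footprints (2.12, SE 0.12, adjusted p = 1.84e-06), and PARP10 rose in both as well (3.62, SE 0.37, and 3.52, SE 0.31, with adjusted p = 7.15e-06 and 3.14e-05). PARP9, PARP10 and PARP14 are known as interferon-induced genes. Ribosome density passed the edgeR test for 0 of the 13, with 1 at an unadjusted p under 0.05, and DESeq2 and limma called 0 too.

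Of 41 tested genes whose symbols start with USP and a number, other than the members, 10 fell in input. There edgeR called 0 higher (2 at an unadjusted p under 0.05, 0 by DESeq2 or limma). Over all tested genes 15.5% were lower and 13.9% higher in input. In footprints 7 of the 41 rose and 9 fell, where 24% and 24.4% of all tested genes did. USP1, the protease of the Fanconi anaemia pathway, fell in input (-1.88, SE 0.24, edgeR adjusted p = 5.97e-05) and in footprints (-1.25, SE 0.18, adjusted p = 0.000524). USP31 (-0.95, SE 0.20, adjusted p = 0.00238) and USP6NL (-1.05, SE 0.18, adjusted p = 0.000795) fell in input, although USP6NL, taken in by its symbol, encodes a GTPase-activating protein for Rab proteins. USP8 (0.63, SE 0.11, adjusted p = 0.00173) and USP11 (0.58, SE 0.11, adjusted p = 0.00280) rose in footprints.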
